A study of Mus musculus with 7 samples.

Results

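Double-strand break repair and damage checkpoint genes were followed in BB-p53n OPCs, cultured mouse oligodendrocyte progenitor cells (OPCs) in which *Trp53*, the gene of p53, was targeted for deletion. The set holds 39 genes of the 33696 in the matrix, listed by symbol from the pathway with earlier results of these data known. Their levels were compared between nuclei with 3 or more *Top2a* UMIs and nuclei with 0. A UMI (unique molecular identifier) marks 1 captured transcript, and *Top2a*, topoisomerase II alpha, is a gene of dividing cells. All 39 members had at least 100 UMIs over both classes together, the minimum set for naming a difference.

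The study injected BB-p53n OPCs into the white matter of syngeneic mice and profiled the resulting gliomas by snRNA-seq, which counts transcripts in single nuclei. Its 7 samples are 1 library of the cultured cells and 6 brains with tumors, 3 early and 3 late, and the tumor samples were not analysed here. The BB-p53n OPCs came from the brains of *Trp53* fl/fl C57BL/6 pups of either sex at postnatal day 5 to 7 and were isolated by an antibody to CD140a (PDGFRα). A retrovirus that carries PDGFB, an IRES and Cre deleted *Trp53* and overexpressed PDGFB in the cells it entered. Both classes of nuclei come from this culture and share the *Trp53* deletion and the PDGFB overexpression that the labels and methods state, and OPCs without them were not analysed here. The library has no replicate, so no p-value is given, and every interval covers counting error only.

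A double-strand break is repaired mainly by homologous recombination or by end joining. In homologous recombination the ends are first resected by MRE11, RAD50 and NBN with further nucleases, and BRCA1, BARD1, PALB2 and BRCA2 then prepare the resected ends for the search of the sister chromatid for the matching sequence, so the pathway works in S and G2 phase. In end joining Ku (XRCC5 and XRCC6), DNA-PKcs (PRKDC), XRCC4 and LIG4 rejoin the ends directly, in any phase of the cycle. The Fanconi anemia proteins clear crosslinks at stalled forks, and the kinases ATM and ATR, with CHEK1 and CHEK2, halt the cycle while DNA is broken, in part through p53.

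The kept nuclei, with 2000 to 8000 detected genes, numbered 8917 of 10047 barcodes and held 141138093 UMIs, with a median of 13771 UMIs per nucleus. *Top2a* divided them into 6285 nuclei with 3 or more UMIs (70.5%), 1081 with 0 (12.1%) and 1551 with 1 or 2. The nuclei with 3 or more were also deeper, with a median of 15909 UMIs against 9451. *Trp53* was counted at 24.4 CPM (UMIs of the gene scaled to the total of its class) in the high class and 27.3 CPM in the nuclei with 0. These counts are summed over the gene and do not show which exons were transcribed, so they do not check the deletion. *Pdgfb* had 75 UMIs in all kept nuclei, 0.531 CPM (0.418 to 0.666). The matrix lists mouse genes, RNA made from the viral construct was not analysed here, and this count does not check the overexpression. The 6 OPC markers summed to 3255 CPM in the high class and 3409 CPM in nuclei with 0. The 5 neuron markers summed to 13.5 and 22.2 CPM, the 4 astrocyte markers to 1.80 and 0.545 CPM, the 5 microglia markers to 6.94 and 7.72 CPM and the 4 endothelial markers to 8.06 and 12.4 CPM. The 4 fibroblast or pericyte markers summed to 0.479 and 0.363 CPM and the 4 markers of mature oligodendrocytes to 2.74 and 2.36 CPM, and 1 microglia and 1 endothelial marker were at 0 in the library. Mitochondrial genes took 6.28% and 6.53% of the UMIs, and the part of these shares and markers in the results was not tested. The proliferation genes *Mki67* and *Cdk1* were 6.25-fold and 5.28-fold higher in the high class. *Pcna*, the replication clamp, was 1.80-fold higher and *Mcm6*, a subunit of the replicative helicase, 1.19-fold higher.

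Most recombination and Fanconi genes were higher in the nuclei with 3 or more *Top2a* UMIs, and the classical end joining genes were not. Of the 39 members, 23 were at least 1.5-fold higher, 0 were at least 1.5-fold lower and 16 were neither. Over all 14196 genes with enough UMIs, 5.28% were at least 1.5-fold higher and 8.08% at least 1.5-fold lower. At a fold of 2 there were 17 members higher, beside 2.71% of all genes, and 0 lower, beside 1.66%. The median ratio of the members was 1.66, against 0.965 over all genes. Summed, the members reached 2260 CPM in the high class and 1446 CPM in the nuclei with 0, a ratio of 1.56 (95% exact interval 1.54 to 1.59). In 18 of the 23 higher members the whole interval lay above 1.5, and in 5 it reached below. Classes set anew on the *Top2a* counts left after each nucleus was thinned to 5000 UMIs gave 17 members higher of 38 with enough UMIs, beside 4.48% of all genes, and the first classes in nuclei with 10000 to 20000 UMIs gave 26 of 39, beside 8.22%.

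**Figure D1:**
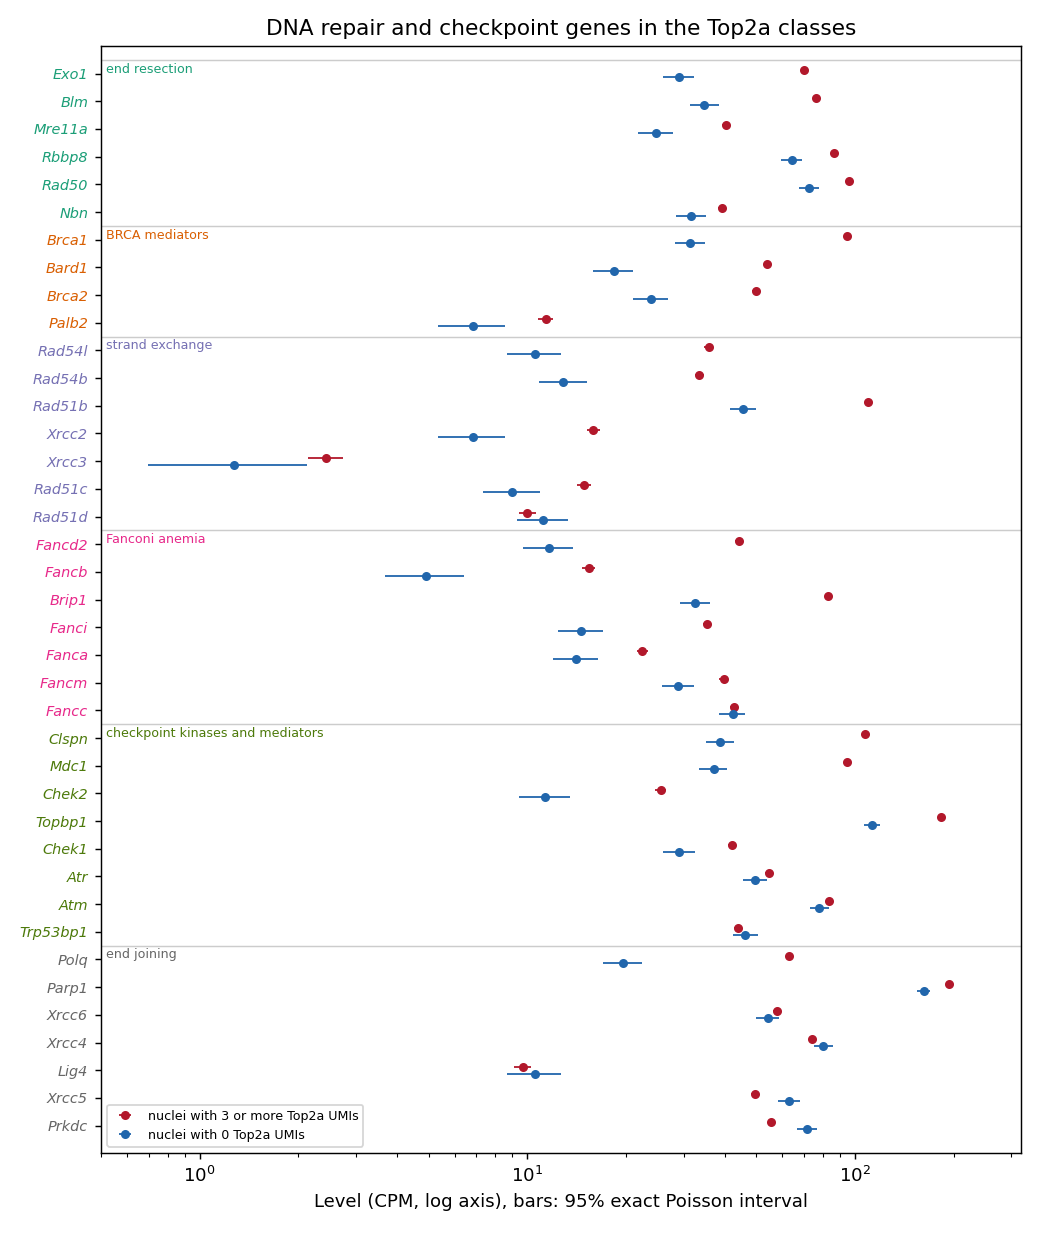
Levels of the 39 members in CPM (log axis) in the nuclei with 3 or more *Top2a* UMIs (red) and with 0 (blue), grouped by role, with 95% exact Poisson intervals. The red points lie to the right of the blue for all 4 BRCA genes, while among the 7 end joining genes the pairs lie close together except for *Polq*, at 63.0 against 19.6 CPM.

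The promoters were searched for words that cell cycle transcription factors bind, because the members that differed between the classes moved with a cell cycle gene. The window ran from 270 bases before the transcription start to 30 bases from it on GRCm39, with the start of the GENCODE vM39 canonical transcript. The E2F words TTTCCCGC, TTTCGCGC, TTTGCCGC and TTTGGCGC, the CHR words TTTGAA and TTCGAA and the CCAAT box were searched on both strands, a promoter counting once for each motif. An E2F word lay in 5 of the 39 member promoters (12.8%) and in 2.67% of 21431 promoters of protein-coding genes. The 5 are printed here with *Brca1*, which has none, with the last 30 bases of each window beginning at the start site. They were chosen after the search, and capitals mark every E2F, CHR or CCAAT word.
Brca1: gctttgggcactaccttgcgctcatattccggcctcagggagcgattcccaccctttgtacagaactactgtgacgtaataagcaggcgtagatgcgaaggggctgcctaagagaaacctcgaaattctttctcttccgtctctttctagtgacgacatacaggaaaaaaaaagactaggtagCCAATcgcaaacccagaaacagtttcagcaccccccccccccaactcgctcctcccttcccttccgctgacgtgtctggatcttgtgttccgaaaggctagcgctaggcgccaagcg
Brca2: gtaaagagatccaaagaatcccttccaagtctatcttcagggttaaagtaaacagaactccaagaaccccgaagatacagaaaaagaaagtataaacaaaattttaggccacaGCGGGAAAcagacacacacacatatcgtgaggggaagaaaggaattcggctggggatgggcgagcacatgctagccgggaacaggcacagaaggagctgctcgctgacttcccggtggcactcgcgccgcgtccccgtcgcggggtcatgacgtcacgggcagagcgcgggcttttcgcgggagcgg
Bard1: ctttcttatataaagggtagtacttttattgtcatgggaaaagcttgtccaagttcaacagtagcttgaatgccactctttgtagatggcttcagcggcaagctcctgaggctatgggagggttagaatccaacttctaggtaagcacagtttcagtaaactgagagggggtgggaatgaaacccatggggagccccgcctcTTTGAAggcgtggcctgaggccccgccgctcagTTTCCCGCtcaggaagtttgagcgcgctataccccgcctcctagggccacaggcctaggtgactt
Chek2: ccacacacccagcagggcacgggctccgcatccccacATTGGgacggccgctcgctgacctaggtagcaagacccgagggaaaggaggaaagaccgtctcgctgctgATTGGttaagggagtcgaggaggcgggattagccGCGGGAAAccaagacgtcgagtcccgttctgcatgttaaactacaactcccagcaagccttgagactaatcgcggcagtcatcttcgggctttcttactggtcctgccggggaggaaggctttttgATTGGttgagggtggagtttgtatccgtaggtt
Mdc1: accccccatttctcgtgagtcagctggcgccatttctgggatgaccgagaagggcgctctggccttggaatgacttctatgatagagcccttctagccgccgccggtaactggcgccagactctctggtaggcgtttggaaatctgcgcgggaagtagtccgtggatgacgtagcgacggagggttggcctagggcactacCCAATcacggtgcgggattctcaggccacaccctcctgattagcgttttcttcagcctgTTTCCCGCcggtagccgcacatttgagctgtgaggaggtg
Xrcc6: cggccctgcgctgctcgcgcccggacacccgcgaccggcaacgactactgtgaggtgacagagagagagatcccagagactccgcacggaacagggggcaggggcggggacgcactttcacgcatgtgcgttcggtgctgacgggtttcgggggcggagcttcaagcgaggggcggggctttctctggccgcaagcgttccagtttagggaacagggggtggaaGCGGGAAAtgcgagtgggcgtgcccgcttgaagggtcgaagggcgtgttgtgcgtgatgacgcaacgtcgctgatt
These windows are *Brca1* on the minus strand at chr11:101442751-101443050, *Brca2* on the plus strand at chr5:150445805-150446104 and *Bard1* on the minus strand at chr1:71142276-71142575. *Chek2* is on the plus strand at chr5:110987556-110987855, *Mdc1* on the plus strand at chr17:36152114-36152413 and *Xrcc6* on the plus strand at chr15:81900300-81900599. The E2F word began at position -157 in *Brca2*, -35 in *Bard1*, -129 in *Chek2*, -10 in *Mdc1* and -46 in *Xrcc6*, counted from the start site. Of the 5 genes, all but *Xrcc6* were among the 23 higher members, which make up most of the 39. An E2F word thus lay in 4 of the 23 higher members (17.4%) and in 1 of the other 16 (6.25%), counts too small to set them apart. A CCAAT box lay in 15 of the 23 higher members (65.2%), in 5 of the other 16 (31.3%) and in 40.5% of all promoters. By role it was found in 6 of 7 Fanconi, 4 of 7 strand exchange and 4 of 8 checkpoint genes. It was found in 2 of 4 BRCA, 2 of 6 end resection and 2 of 7 end joining genes. The Fanconi gene without it was *Fancd2*, which had the highest ratio of all members, while *Fancc* and *Fancm*, not among the higher members, had it. A CHR word lay in 17.4% of the higher members, in 18.8% of the others and in 19.7% of all promoters. A word in a window is a match of letters only, and binding was not measured.

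The 4 BRCA mediator genes were all at least 1.5-fold higher, with ratios from 1.67 to 3.00 and a summed ratio of 2.61 (2.44 to 2.79). *Brca1*, a scaffold and ubiquitin ligase that commits a break to recombination, was the member of this role with the highest ratio and the most UMIs. The gene spans 63.2 kb of chromosome 11 (GRCm39, 101379577 to 101442781, minus strand). Its level was 94.3 CPM (92.5 to 96.1) with 3 or more *Top2a* UMIs and 31.4 CPM (28.2 to 34.9) with 0, a ratio of 3.00 (2.70 to 3.35). *Bard1*, the obligate partner of BRCA1, moved with it at 54.1 against 18.3 CPM, a ratio of 2.95 (2.56 to 3.41). *Brca2*, which acts on the resected single-stranded DNA, was at 49.9 against 23.8 CPM, a ratio of 2.10. *Palb2*, the bridge between BRCA1 and BRCA2, lies on chromosome 7 (121706483 to 121732208, minus strand) and was the scarcest of the 4. Its level was 11.4 CPM (10.8 to 12) against 6.81 CPM (5.36 to 8.54), a ratio of 1.67 (1.32 to 2.14). *Brca2* shares its strand with *Gm42531* over part of its span, so its count is uncertain where reads fit both.

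Of the 7 genes grouped as strand exchange factors, *Rad51b*, *Rad51c*, *Rad51d*, *Xrcc2*, *Xrcc3*, *Rad54l* and *Rad54b*, 6 were at least 1.5-fold higher and the summed ratio was 2.28 (2.15 to 2.43). *Rad54l*, a motor protein of invasion into the sister duplex, had the highest ratio. It lies on chromosome 4 (115948561 to 115980894, minus strand) and was counted at 35.7 CPM (34.6 to 36.9) against 10.5 CPM (8.70 to 12.6), a ratio of 3.39 (2.82 to 4.12). *Rad54b*, its relative, had a ratio of 2.60, with *Fsbp* overlapping it on the same strand. *Rad51b*, a subunit of the BCDX2 complex of homologous recombination, had the most UMIs of the role, 14002. It spans 518 kb of chromosome 12 (79343212 to 79861464, plus strand) and was at 110 CPM (108 to 112) against 45.6 CPM (41.7 to 49.8), a ratio of 2.41 (2.20 to 2.63). The other subunits of that complex did not share this ratio throughout. *Xrcc2* was at 15.9 against 6.81 CPM, a ratio of 2.34, and overlaps *Gm10062* on its strand. *Rad51c* was at 14.9 against 8.99 CPM, a ratio of 1.66 (1.35 to 2.05). *Rad51d*, on chromosome 11 (82763990 to 82781466, minus strand), had the lowest ratio of the role, with 10.0 CPM (9.43 to 10.6) against 11.2 CPM (9.28 to 13.3), a ratio of 0.896 whose interval of 0.743 to 1.09 spans 1. *Xrcc3*, which pairs with the product of *Rad51c* in a second complex, had 323 UMIs in the library and a ratio of 1.91 (1.12 to 3.54), the widest interval of all members.

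The Fanconi genes spanned ratios from 1.01 to 3.82. Of the 7, 5 were at least 1.5-fold higher, with a summed ratio of 1.90 (1.80 to 1.99). *Fancd2*, a subunit of the clamp that, once ubiquitinated, locks onto crosslinked DNA, had the highest ratio of all 39 members. It lies on chromosome 6 (113508412 to 113573982, plus strand) and was at 44.4 CPM (43.2 to 45.7) against 11.6 CPM (9.70 to 13.8), a ratio of 3.82 (3.21 to 4.59). *Fanci*, the other subunit of that clamp, was at 35.4 against 14.6 CPM, a ratio of 2.42 (2.07 to 2.85). The core complex, which ubiquitinates the clamp, was uneven. *Fancb* had a ratio of 3.14 (2.39 to 4.19), *Fanca* of 1.59 (1.35 to 1.89) and *Fancc* of 1.01 (0.917 to 1.11). *Fancc* spans 212 kb of chromosome 13 (63432857 to 63645092, minus strand), overlaps *Gm16132* on its strand, and stood at 42.7 CPM (41.5 to 43.9) and 42.3 CPM (38.6 to 46.3). *Fancm*, the translocase that anchors the core complex, had a ratio of 1.38 (1.23 to 1.55). *Brip1*, the helicase partner of BRCA1 and the Fanconi gene with the most UMIs, lies on chromosome 11 (85948957 to 86092592, minus strand). Its level was 82.5 CPM (80.8 to 84.2) against 32.5 CPM (29.2 to 36.1), a ratio of 2.54 (2.28 to 2.83).

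Among the 6 end resection genes, the long-range nuclease and helicase differed most between the classes and the MRN complex less. *Exo1*, the exonuclease of long-range resection, lies on chromosome 1 (175708143 to 175741055, plus strand) and was at 69.9 CPM (68.4 to 71.5) against 29.0 CPM (25.9 to 32.3), a ratio of 2.41 (2.16 to 2.71). *Blm*, the helicase that opens the duplex for it, had a ratio of 2.19 (1.98 to 2.44). The 3 genes of the MRN complex, which starts resection and recruits ATM, had ratios of 1.64 for *Mre11a*, 1.32 for *Rad50* and 1.24 for *Nbn*, and *Mre11a* alone of them was past 1.5. *Rad50*, with the most UMIs of the role, is on chromosome 11 (53539837 to 53598154, minus strand) and was at 95.6 CPM (93.8 to 97.4) against 72.4 CPM (67.4 to 77.6). *Nbn*, the lowest, is on chromosome 4 (15957896 to 15993588, plus strand) and was at 39.2 CPM (38.1 to 40.4) against 31.6 CPM (28.4 to 35.1), an interval of 1.11 to 1.39 for the ratio. *Rbbp8*, which encodes CtIP, the cofactor of MRE11, had a ratio of 1.34 (1.24 to 1.45). The intervals of all 6 lay above 1.

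The 8 checkpoint genes ranged from 0.95 to 2.78, with the apical kinases near 1 and 3 of the 4 mediators and adaptors past 1.5. *Atm* and *Atr* had ratios of 1.07 (0.999 to 1.15) and 1.10 (1.01 to 1.21). The effector kinase *Chek1* reached 1.45 (1.29 to 1.63), the member just below the 1.5-fold line, and *Chek2* 2.25 (1.88 to 2.71). *Clspn*, which encodes claspin, the adaptor through which ATR activates CHEK1, had the highest ratio of the role. It is on chromosome 4 (126450728 to 126489576, plus strand) and was at 108 CPM (106 to 110) against 38.8 CPM (35.2 to 42.6), a ratio of 2.78 (2.52 to 3.06). *Mdc1*, which binds phosphorylated H2AX at the break, had a ratio of 2.55 (2.31 to 2.82). *Topbp1*, the activator of ATR, had the most UMIs of the role, lies on chromosome 9 (103182356 to 103227631, plus strand) and was at 183 CPM (180 to 185) against 113 CPM (106 to 119), a ratio of 1.62 (1.53 to 1.72). *Trp53bp1*, which encodes 53BP1, the protein that holds back resection in favor of end joining, had the lowest ratio. It is on chromosome 2 (121023762 to 121120840, minus strand) and was at 44.0 CPM (42.8 to 45.2) against 46.3 CPM (42.4 to 50.5), a ratio of 0.95 (0.867 to 1.04).

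The 7 end joining genes had a summed ratio of 1.09 (1.06 to 1.12), and *Polq* was the only one past 1.5. *Polq* encodes the polymerase of theta-mediated end joining, which works on resected ends, and is on chromosome 16 (36832108 to 36915779, plus strand). Its level was 63.0 CPM (61.6 to 64.5) against 19.6 CPM (17.1 to 22.4), a ratio of 3.21 (2.81 to 3.70). Of the 5 genes of the classical pathway, 4 stood below 1. *Prkdc*, the DNA-PK catalytic subunit on chromosome 16 (15455698 to 15660099, plus strand), had the lowest ratio of all members, with 55.5 CPM (54.1 to 56.9) against 71.5 CPM (66.6 to 76.6), a ratio of 0.777 (0.721 to 0.837). *Xrcc5*, which encodes Ku80, was at 49.6 against 62.9 CPM, a ratio of 0.788 (0.728 to 0.854), and *Xrcc6*, which encodes its partner Ku70, had a ratio of 1.06 (0.976 to 1.16). *Xrcc4* and *Lig4*, the ligase complex, had ratios of 0.924 (0.862 to 0.991) and 0.918 (0.758 to 1.12). The intervals of *Prkdc*, *Xrcc5* and *Xrcc4* lay below 1, and none of them was past 1.5-fold. The direction of *Xrcc5*, *Xrcc4*, *Xrcc6* and *Lig4* depended on the nuclei used. *Xrcc5* had a ratio of 1.21 (0.991 to 1.49) in nuclei with *Xist* and no Y-linked UMI, 1.28 (1.04 to 1.58) in cluster 1 of the clusters described further on, and 0.644 (0.489 to 0.854) in cluster 7. *Xrcc4* stood at 1.05 and 1.13 after thinning to 5000 UMIs, with *Top2a* 1 or more and 3 or more against 0. *Prkdc* stayed below 1 in all 16 alternatives that gave it a new ratio, between 0.747 and 0.974, and stood at 1.19 (0.721 to 2.14) in cluster 5. The 0.974 came from nuclei with 10000 to 20000 UMIs. There *Xrcc4* stood at 0.976, *Xrcc5* at 0.869, *Xrcc6* at 1.09 and *Lig4* at 1.10. After thinning, with *Top2a* 1 or more and 3 or more against 0, *Prkdc* stood at 0.842 and 0.801. *Xrcc6* stood at 0.859 with at most 5% mitochondrial UMIs. The part of depth in these ratios was not tested. *Parp1*, which senses breaks and nicks and had the most UMIs of all members, is on chromosome 1 (180396443 to 180431307, plus strand) and was at 194 CPM (192 to 197) against 162 CPM (155 to 170), a ratio of 1.2 (1.14 to 1.26).

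**Figure D2:**
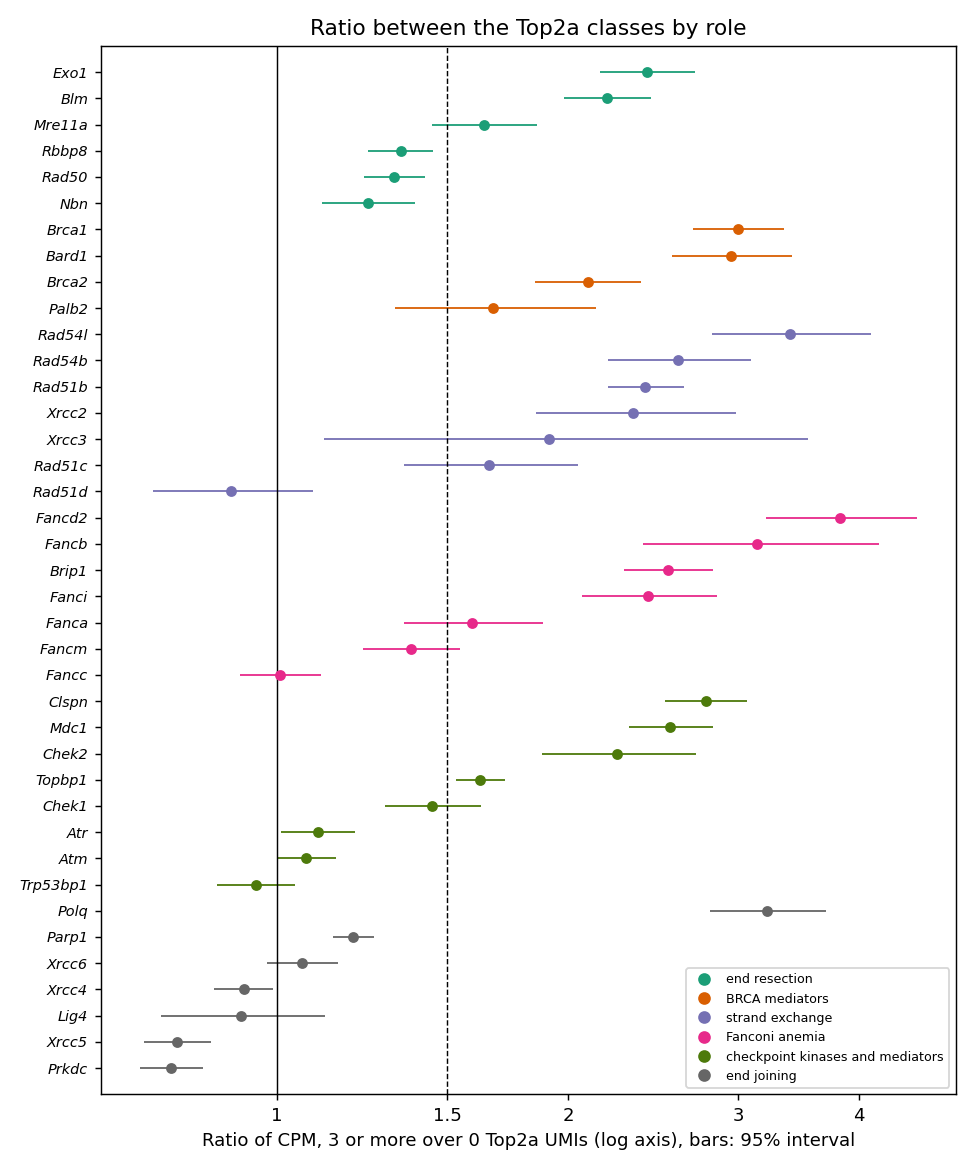
Ratio of CPM between nuclei with 3 or more and with 0 *Top2a* UMIs for the 39 members (log axis), by role, with 95% exact intervals; the solid line is at 1 and the dashed line at 1.5. All 4 BRCA genes lie right of the dashed line, and of the end joining genes only *Polq* does.

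To compare genes, levels were scaled per kb of gene, since nuclear reads fall on introns as well as exons. The rankings of genes by UMIs or CPM above are not scaled to length. Per kb of gene span over all kept nuclei, *Parp1* was highest with 5.48 CPM, followed by *Mdc1* with 4.67 and *Topbp1* with 3.83. *Rad51b*, among the members with the most UMIs, had 0.191 CPM per kb of span, and *Xrcc2* had 0.133. Per kb of exon *Rad51b* had 20.2 CPM, second to *Parp1* with 26.2, so its place depends on which length is used. Across the 39 genes log10 span and log10 CPM had a Pearson r of 0.53 (Spearman rho 0.45), while log10 span and the log2 ratio between the classes had an r of -0.12 (rho -0.14). These describe genes of 1 library, which are not independent replicates.

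In single nuclei the members were sparse. After thinning to 5000 UMIs, with the classes kept from before thinning, a nucleus with 3 or more *Top2a* UMIs held a median of 11 UMIs of the 39 members (quartiles 8 and 14) and a nucleus with 0 held 7 (quartiles 4 and 10), over 6229 and 1028 nuclei. The 4 BRCA genes together gave no UMI in 36.7% and 71.6% of these nuclei. The 7 end joining genes gave none in 8.14% and 11.6%. Free RNA in the droplets can give a UMI in a nucleus that does not express a gene. No group of nuclei known to lack these genes was set apart, so that background was not measured. The share in nuclei with 0 *Top2a* UMIs is only an upper limit of it.

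*Top2a* is highest late in the cycle, so a second measure was used to find nuclei in DNA replication. Each nucleus was given the share of its UMIs on 35 S phase genes that Seurat carries, leaving out every member and pathway gene, with high as the top 25% of kept nuclei and low as the lower 50%. These classes are ranges of a score and not cell types, and 1223 nuclei lay within 10% of the high limit. Nuclei with 0 *Top2a* UMIs comprised 771 with a low and 106 with a high share, and nuclei with 3 or more comprised 2824 and 1797. Of genes outside that list, the 106 nuclei had 45.3 CPM of *Ccne1*, cyclin E1, against 12 CPM in the 771. Their *Ccnb1*, cyclin B1, was at 18.5 CPM, against 30.5 CPM in the 771 and 233 CPM in the 2824.

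The members were high in the nuclei with a high replication share even where *Top2a* was at 0. Their summed level was 1175 CPM with 0 *Top2a* UMIs and a low share, 2618 CPM with 0 and a high share, 2859 CPM with 3 or more and a high share, and 1923 CPM with 3 or more and a low share. Among nuclei with 0 *Top2a* UMIs, 23 of the 30 members with enough UMIs were at least 1.5-fold higher with a high share and 0 lower, beside 7.20% of all genes higher and 6.67% lower. *Brca1* ran from 13 to 136 CPM there, a ratio of 10.4 (8.0 to 13.6). *Bard1* had a ratio of 8.46 (5.96 to 12), *Clspn* of 6.91 (5.44 to 8.76) and *Brip1* of 6.71 (5.12 to 8.78). In these nuclei *Trp53bp1* stood at 46.5 CPM with a low share and 38.1 CPM with a high share, a ratio of 0.819 (0.568 to 1.15). The 106 nuclei hold 971246 UMIs, and with nuclei of 10000 to 20000 UMIs only the count was 14 of 22 members with enough UMIs, beside 8.89% of all genes. With nuclei of at most 5% mitochondrial UMIs it was 5 of 10, beside 7.12%, over 28 nuclei with a high and 185 with a low share. The minimum of UMIs covers both shares together, and the 771 nuclei with a low share hold 7977366 UMIs. *Bard1*, *Rad54b*, *Fanca* and *Fanci* had 67, 67, 68 and 83 UMIs in them, against 69, 39, 34 and 33 in the 106. At an equal level in both they would have missed the minimum, yet they count among the 23. That count is thus in part set by the minimum, which was the same for all genes.

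**Figure D3:**
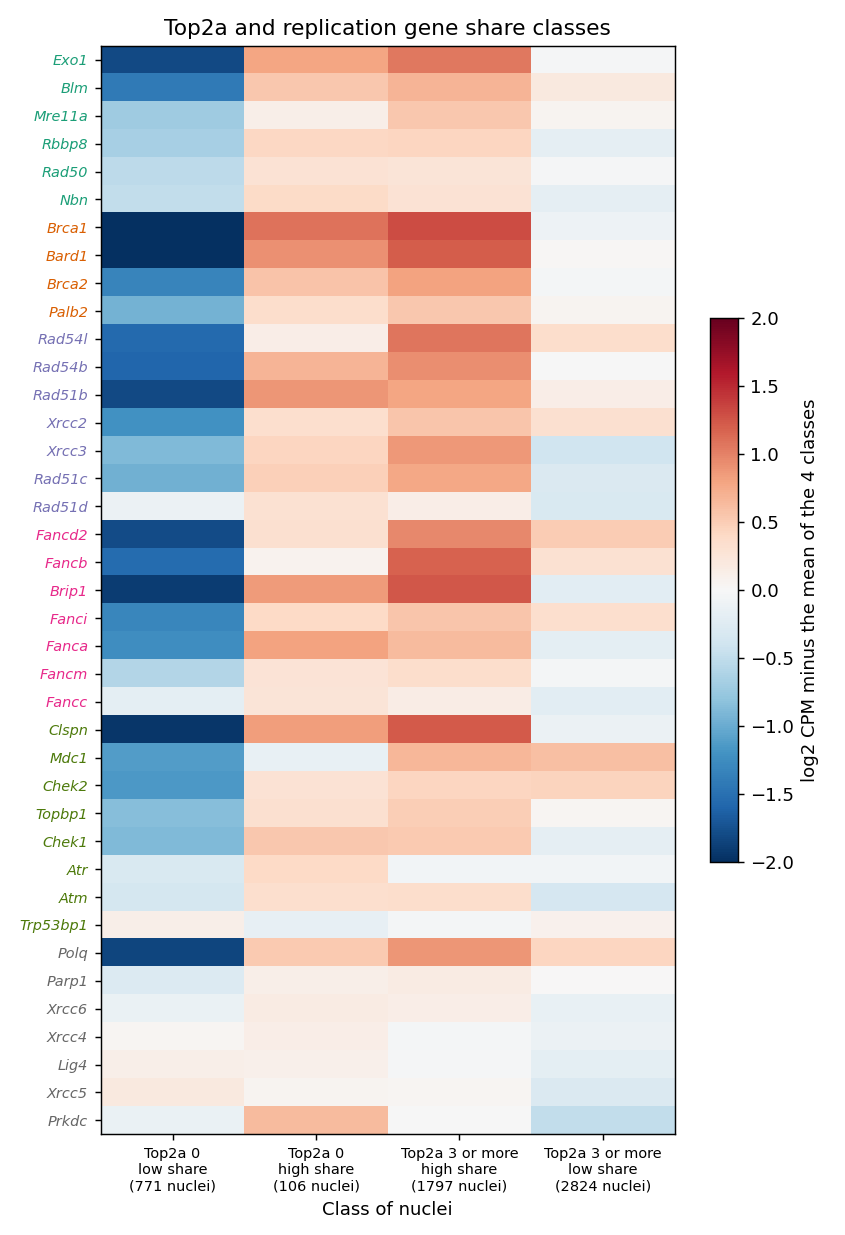
log2 CPM of each member minus its mean over the 4 classes of nuclei, defined by *Top2a* UMIs and the replication gene share; red is above and blue below that mean, and gene names are colored by role. *Brca1*, *Bard1*, *Clspn* and *Brip1* are among the darkest in the first column, *Top2a* 0 with a low share, while *Trp53bp1* and *Xrcc4* stay near 0 in all 4 columns.

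The replication share and *Top2a* placed the members in different orders. Within nuclei with 3 or more *Top2a* UMIs, 16 of the 39 members were at least 1.5-fold higher with a high replication share and 0 lower, beside 6.98% and 2.20% of all genes. The highest ratios were those of *Brip1* at 2.75, *Brca1* at 2.66, *Clspn* at 2.55, *Xrcc3* at 2.40 and *Bard1* at 2.28. *Chek2* at 0.990 (0.902 to 1.09), *Atr* at 0.999 (0.938 to 1.06) and *Mdc1* at 1.04 (0.991 to 1.09) did not pass the fold there. Within nuclei of a low replication share, 23 of 39 members were at least 1.5-fold higher with 3 or more *Top2a* UMIs than with 0 and 0 were lower, beside 5.89% and 8.71% of all genes. *Mdc1* had a ratio of 3.31 (2.90 to 3.81) in that comparison and *Chek2* of 3.00 (2.35 to 3.90). *Fancd2* led it with 4.91 (3.83 to 6.42), followed by *Polq* with 4.77 (3.88 to 5.93). *Atm* showed the opposite pair of values, with 1.62 (1.54 to 1.70) for the replication share and 1.02 (0.928 to 1.11) for *Top2a*. *Prkdc* was at 1.39 (1.31 to 1.48) for the replication share and at 0.778 (0.707 to 0.858) for *Top2a*, and *Xrcc5* at 1.25 and 0.720. Both comparisons use the 2824 nuclei with 3 or more *Top2a* UMIs and a low share. Neither comparison holds the other measure fixed. In nuclei of a low share the summed S phase genes were at 1578 CPM with 0 *Top2a* UMIs and 2447 CPM with 3 or more. Median UMIs there were 9547 and 17534.5. In nuclei with 3 or more, *Top2a* was at 748 CPM with a high share and 995 CPM with a low one. Their summed G2/M genes were at 6860 and 11158.5 CPM. For *Mdc1*, *Atr* and *Chek2* the values near 1 for the replication share hold only for nuclei with 3 or more *Top2a* UMIs. Among nuclei with 0, a high over a low share gave *Mdc1* 1.96 (1.42 to 2.66) and *Atr* 1.62 (1.24 to 2.08). *Chek2* stood at 2.70 (1.59 to 4.42) among those nuclei, on 89 UMIs, below the minimum for naming a difference.

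**Figure D4:**
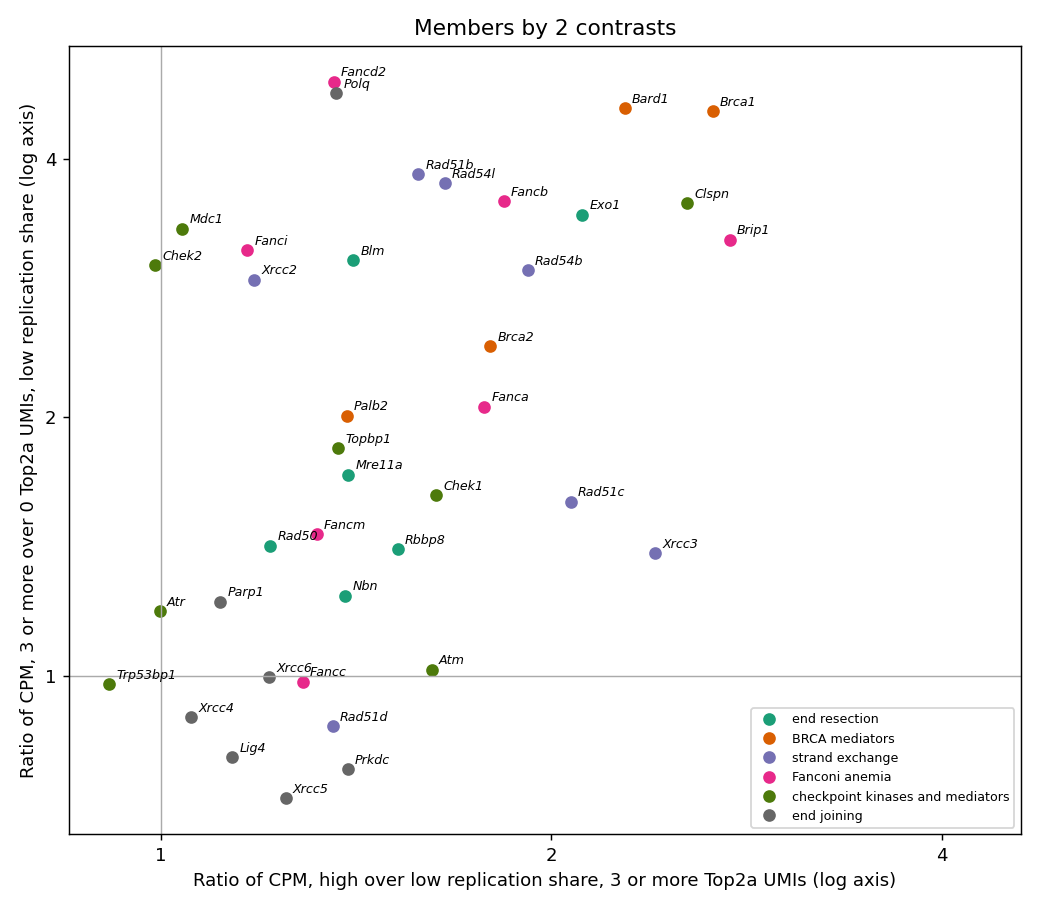
Each point is a member, placed by its ratio of CPM between a high and a low replication share among nuclei with 3 or more *Top2a* UMIs (horizontal, log axis) and by its ratio between 3 or more and 0 *Top2a* UMIs among nuclei of a low share (vertical, log axis). *Mdc1* and *Chek2* lie near 1 on the horizontal axis and at 3.31 and 3.00 on the vertical one, *Atm* lies at 1.62 and 1.02, and both axes share 1 class of nuclei. Neither axis holds the other measure fixed.

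Along bins of *Top2a* UMIs the members did not share 1 course. After thinning to 5000 UMIs the 5 bins held 1907 nuclei with 0 *Top2a* UMIs, 1344 with 1, 1878 with 2 to 3, 2078 with 4 to 6 and 1553 with 7 or more. *Palb2*, *Rad51c*, *Xrcc2*, *Fancd2*, *Fanci* and *Polq* increased at each of the steps, *Prkdc* decreased at each, and 32 members did neither. *Fancd2* went from 15.6 CPM in the first bin through 28.1, 41.6 and 46.5 to 47.5 CPM in the last. *Exo1* went from 42.3 CPM to 78.1 CPM at 2 to 3 *Top2a* UMIs and stood at 64.5 CPM in the last bin. *Prkdc* went from 72.4 to 51.3 CPM. The highest level lay in the bin of 2 to 3 *Top2a* UMIs for 14 members, in the last bin for 10, in the bin of 4 to 6 for 8, in the bin of 1 for 5 and in the bin of 0 for 2. These courses and highest bins were not counted over all genes, so the counts have no background. No interval was set on a step, and some steps were small. *Palb2* went from 11.8 CPM at 2 to 3 *Top2a* UMIs to 11.9 CPM at 4 to 6. The summed S phase genes were highest at 2 to 3 *Top2a* UMIs, with 3817 CPM, and the summed G2/M genes in the last bin, with 11958 CPM.

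Clusters of nuclei found without cell cycle and repair genes differed in some members. The 8 clusters, numbered from 0 by size, held 1768 to 185 nuclei, and none was given a cell type name. *Rad51b* had the widest range, with 25.5 CPM in cluster 6 and 233 CPM in cluster 1. Cluster 1 held 1721 nuclei, with *Pdgfra*, the OPC receptor, at 18.3 CPM and *Egfr* at 236 CPM, while *Pdgfra* was between 148 and 345 CPM in the other clusters. *Prkdc* was lowest in cluster 2, at 30.2 CPM, and highest in cluster 1, at 116 CPM. *Xrcc5* was lowest in cluster 6 (36.7 CPM) and highest in cluster 7 (128 CPM), and *Chek2* lowest in cluster 3 (13.4 CPM) and highest in cluster 1 (38.2 CPM). *Atm* ranged least, from 69.2 to 94.1 CPM. The share of nuclei with 3 or more *Top2a* UMIs was 45.5% in cluster 3 and 98.0% in cluster 2, so levels by cluster hold the *Top2a* difference too.

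**Figure D5:**
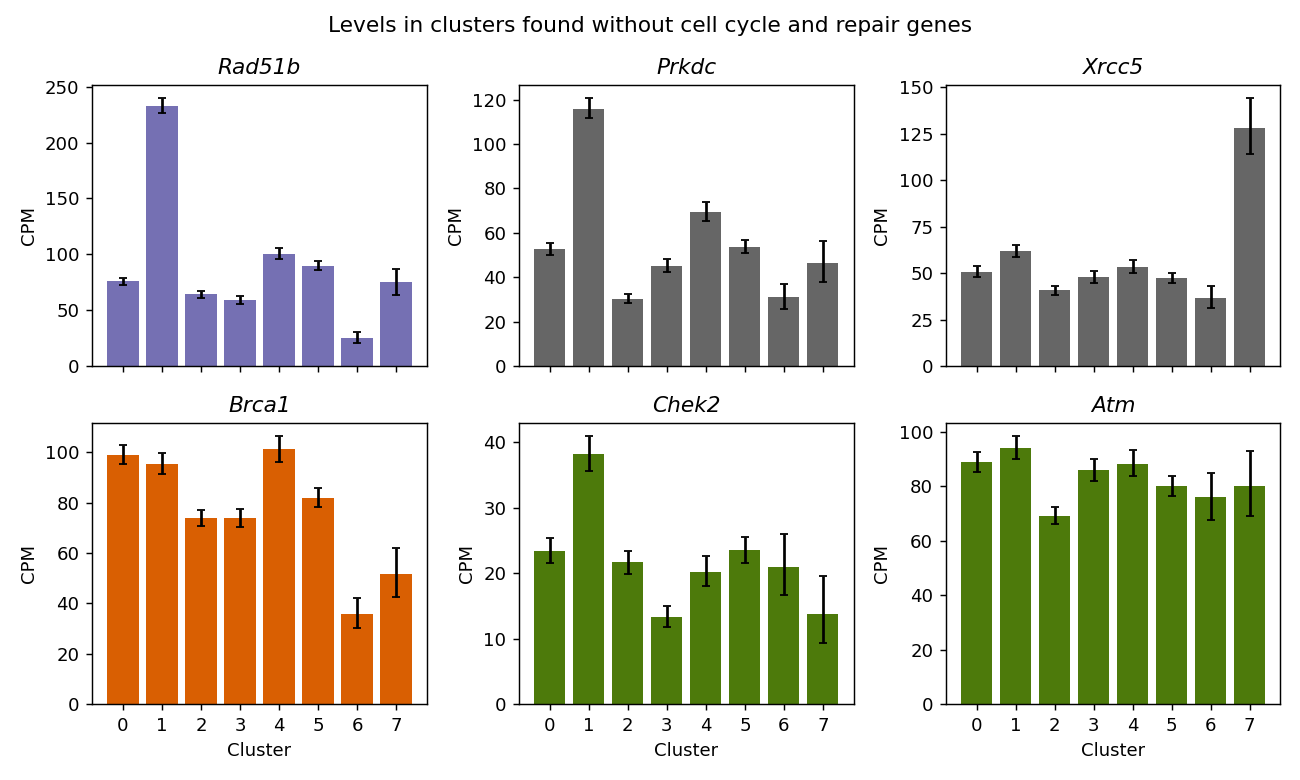
Levels in CPM of *Rad51b*, *Prkdc*, *Xrcc5*, *Brca1*, *Chek2* and *Atm* in the 8 clusters, with 95% exact Poisson intervals; bars are colored by role. *Rad51b*, *Prkdc* and *Chek2* are highest in cluster 1, *Xrcc5* in cluster 7 at 128 CPM, and *Atm* varies least of the 39 members.

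The comparison of the *Top2a* classes was repeated within each cluster. At least 1.5-fold higher were 25 of 38 members with enough UMIs in cluster 0, 18 of 38 in cluster 1, 23 of 38 in cluster 3, 24 of 38 in cluster 4 and 26 of 38 in cluster 5, beside 8.17%, 7.22%, 5.14%, 8.21% and 20.1% of all genes. Cluster 5 had 27 nuclei with 0 *Top2a* UMIs and cluster 2 had 4, so that 43.4% of all genes passed the fold in cluster 2 and its 16 members are not told apart from them. At least 1.5-fold lower were 0 members in clusters 0, 1, 3 and 4. In cluster 2 they were 7, beside 23.2% of all genes, and in cluster 5 they were 2, *Fancc* and *Xrcc5*, beside 12.8%. Clusters 6 and 7, the smallest, gave 6 of 17 and 11 of 16 members higher, beside 11.3% and 11.1%, and 1 lower in each, beside 4.96% and 4.24%. The lower member was *Brip1* in cluster 6, at 0.535 (0.333 to 0.897), and *Xrcc5* in cluster 7. The minimum of UMIs covers both classes together, so in small clusters a member can pass it through the high class alone. In cluster 7 *Mdc1* had 124 UMIs over all nuclei and a ratio of 12.7 (4.24 to 62.7). At its level in nuclei with 0 it would have missed the minimum. The count in cluster 7 is thus in part set by the minimum, which was the same for all genes. The pups were of either sex, and nuclei with *Xist* and no Y-linked UMI gave 17 of 38 members higher, beside 8.95% of all genes, with a median ratio of 1.42. Nuclei with a Y-linked UMI and no *Xist* gave 22 of 38, beside 6.90%, with a median of 1.72. These 2 groups also differed in the genes that set cluster 1 apart. *Pdgfra* was at 87.8 CPM in the nuclei with *Xist* and 256 CPM in those with a Y-linked UMI, and *Egfr* at 188 and 47.5 CPM. A difference by sex cannot be told apart from that one.

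Beyond the members, 68 other genes of the same pathways were counted. At least 1.5-fold higher in nuclei with 3 or more *Top2a* UMIs were 20, none was at least 1.5-fold lower, and 48 were neither, beside the 5.28% and 8.08% of all genes that were higher and lower, with a median ratio of 1.24. The highest were *Cdc25c*, the phosphatase that starts mitosis, at 5.20 (4.18 to 6.54), *Gen1*, a Holliday junction resolvase, at 5.13 (3.94 to 6.81), and *Ube2t*, the ubiquitin-conjugating enzyme of the Fanconi pathway, at 3.79 (3.21 to 4.50). The lowest were *Shld1* at 0.715 (0.610 to 0.843), *Polm* at 0.763 (0.601 to 0.981) and *Shld2* at 0.850 (0.736 to 0.987). *Shld1* and *Shld2* encode subunits of shieldin, which acts after 53BP1 to protect ends from resection, and *Polm* a polymerase of end joining. Named after its values were seen, *H2ax*, the histone phosphorylated at breaks, stood at 346 against 103 CPM, a ratio of 3.38 (3.18 to 3.59).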

How the data were processed

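Nuclei of 1 culture of BB-p53n OPCs were sequenced with the 10x 3' v3.1 kit, and the authors ran Cell Ranger 8.0.1 on mm39 (per the labels) and deposited UMI counts of each gene in each called barcode, not normalized. This version counts intron reads by default and uses strand. From the deposited counts, barcodes with 2000 to 8000 detected genes were kept (141138093 of 154375410 UMIs). The study states 1954 nuclei for this library after filtering, which equals the number of the 8917 kept here with at most 5% mitochondrial UMIs; that limit is an alternative. UMIs were summed over the nuclei of a class and normalized to CPM. Ratios of CPM have 95% exact intervals (Clopper-Pearson on the split of the UMIs), levels exact Poisson intervals. With 1 library no test was run; a gene was named higher or lower past a fold of 1.5 with at least 100 UMIs over both classes together, and the share of all genes past it is the background.

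The members and lists were chosen with earlier results of these data known. Described in full were the members of each role with the highest ratio, the lowest ratio and the most UMIs, and the 3 highest and 3 lowest other pathway genes; 1 gene of that list is not reported here. Clusters came from Seurat 5.3.0 in R 4.3.3 (scale factor 1000, 3000 variable genes less 62 cell cycle and repair genes, 20 components, 200 neighbors, resolution 1.0). No doublets were removed, since the automatic threshold of Scrublet in scanpy 1.11.5 called 0 of 8917 nuclei and so had not worked. Gene positions and promoters are from GRCm39 with GENCODE vM39, which matched 33185 genes by identifier. Intervals and fits were tested on simulated data. Alternatives changed the barcodes, depth, marker of the classes, scaling, minimum of UMIs and fold.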

Additional observations from a re-analysis of the deposited data

How the results depend on the processing

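The 23 members at least 1.5-fold higher ranged from 17 to 26 over the alternatives, and 0 members were at least 1.5-fold lower in any of them. In the alternatives that gave new ratios, 3.92% to 8.95% of all genes were at least 1.5-fold higher and 2.09% to 9.93% lower. The median log2 ratio, 0.73, ranged from 0.50 (*Mki67* classes, or nuclei with *Xist* only) to 0.91 (10000 to 20000 UMIs). The summed ratio of 1.56 moved past its interval to 1.53 with all deposited barcodes, 1.52 with *Top2a* 1 or more, 1.37 with classes by *Mki67*, 1.70 in nuclei of 10000 to 20000 UMIs, 1.37 and 1.41 after thinning to 5000 UMIs (*Top2a* 1 or more, and 3 or more, the latter chosen after seeing the data), 1.62 with median-of-ratios size factors, 1.62 over clusters (Mantel-Haenszel) and 1.43 in nuclei with *Xist* only. The count of members higher with a high replication share is in part set by the minimum of UMIs. The 23 members higher with a high replication share became 5 of 10 with at most 5% mitochondrial UMIs, beside 7.12% of all genes. In nuclei of 10000 to 20000 UMIs, where fewer members had enough UMIs, they became 14 of 22, beside 8.89%. At a fold of 2 they became 15 of 30, beside 2.52% of all genes. Of 620 values of single members under the alternatives, 501 lay within the first interval, 119 outside and 0 reversed a call. Of members not called, *Xrcc5* turned to 1.21 in nuclei with *Xist* only and *Xrcc4* to 1.05 and 1.13 after thinning. The 23 higher members stayed above 1 in all 364 of their values and past the fold in 342, with a lowest ratio of 1.16. The causes of these shifts were not tested. No paired analysis was possible because the comparison lies within 1 library.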
